A study of Mus musculus with 2 samples.

Results

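The genes described here encode the proteins of the cytosolic ribosome. They were taken as all protein-coding genes of GENCODE M21 whose symbols begin with Rpl followed by a digit or p, or with Rps followed by a digit or a, without names that contain -ps and without the Rps6k kinases. The rule found 86 genes among 43346 genes in the tables. Of these, 46 encode core proteins of the large subunit, 31 encode core proteins of the small subunit, and the other 9 are paralogs or partners that share the naming. The series holds 2 RNA-seq libraries, replicates 1 and 2 of 1 group: thymus of C57BL/6J mice aged 8 weeks, each labelled as a pool of males and females from littermates. RNA was labelled as polyadenylated, depleted of ribosomal RNA and over 200 nucleotides, and was read as stranded pairs of 76 bases. The series has 1 tissue, 1 strain and 1 age, so no condition was compared and no test across groups was possible. Both samples carry the same donor entry, and the spread between them may be technical in part. Pairs of values are those of replicates 1 and 2, and with n = 2 their spread rests on 1 difference.

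The eukaryotic ribosome is built from ribosomal RNA and a fixed set of proteins, each present in most cases as a single copy per particle, so the genes are transcribed at high level in most tissues. Their mRNAs typically begin at a C followed by a run of pyrimidines, the 5′ terminal oligopyrimidine tract, through which mTOR signalling and Larp1 control their translation. Mammalian genomes carry many processed copies of these mRNAs, inserted by reverse transcription and mostly classed as pseudogenes. In the thymus the family is best known for Rpl22, whose loss in mice blocks the development of alpha beta T cells through p53.

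Replicate 1 held 49.3 M and replicate 2 held 63.1 M estimated fragments over all features, of which 48.6 and 62.1 M fell on genes. Over 17989 genes with at least 20 fragments in sum, the median chi-square between libraries was 6.32, against 0.455 from counting alone. They differed by more than the sampling noise and were not counted as 1 sample, which does not show whether the difference lies in the tissue or in the library preparation. All 10 thymus markers on the list, from Cd4 and Rag1 to the epithelial regulator Foxn1, had at least 10 TPM, with Cd4 at 459.7 and 445.6 TPM and Foxn1 at 22.7 and 24.6 TPM in replicates 1 and 2. Other markers on the list were less even, and 5 of the 10 were higher in replicate 2. Prss16 had 536.72 and 800.93 TPM and Psmb11 had 56.64 and 72.85 TPM. Cd3e went the other way, with 354.84 and 254.41 TPM. TPM is the authors' abundance per length, scaled to the same sum in each library.

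The start sequences show how the family's 5′ ends look in this genome. RefSeq promoters on GRCm38.p6 were held for 66 of the 86 genes. Each line gives 60 bases on the gene's sense strand, 30 upstream of the annotated start and 30 of the transcribed 5′ end from it. The first 4 are the promoters of the highest genes among those in the table, with the pyrimidine run near the start in capitals, or, in Rplp0, a TATAAA motif. The last 2 are Rps27 and its retrocopy Rps27rt, chosen after their values were seen, with the stretch they share in capitals.
Rpl13a (chr7:45128716-45128775, minus strand): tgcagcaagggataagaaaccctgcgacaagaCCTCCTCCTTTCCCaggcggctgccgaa
Rps12 (chr10:23787180-23787239, minus strand): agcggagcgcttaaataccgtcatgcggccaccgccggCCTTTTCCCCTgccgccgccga
Rps21 (chr2:180257349-180257408, plus strand): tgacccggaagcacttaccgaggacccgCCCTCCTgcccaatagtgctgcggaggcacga
Rplp0 (chr5:115559437-115559496, plus strand): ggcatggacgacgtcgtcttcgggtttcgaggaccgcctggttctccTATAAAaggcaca
Rps27 (chr3:90213619-90213678, minus strand): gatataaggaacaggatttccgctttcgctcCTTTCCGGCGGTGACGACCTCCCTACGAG
Rps27rt (chr9:114982710-114982769, minus strand): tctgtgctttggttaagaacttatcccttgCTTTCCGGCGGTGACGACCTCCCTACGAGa

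A run of at least 6 pyrimidines that began with C within 10 bases of an annotated start was present in 35 of 66 genes of the family, or 53.0%. The background was 21.9% of all 27025 promoters and 23.7% of the promoters of protein-coding genes with at least 1 TPM. The run was 14 bases long in Rpl13a, 11 in Rps12 and 7 in Rps21. Rplp0 had no run in that window. Its TATAAA lies 17 bases after the annotated start. Requiring at least 6 pyrimidines from a C at the annotated start itself left 12 of 66 genes, or 18.2%, against 2.05% of all promoters. These include genes whose run begins before the start, such as Rps27. With only the first start listed for each gene the shares were 48.5% and 19.2%.

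Single positions showed the same 5′ composition. At the annotated start, 49.1% of 57 core genes had a C or T, against 24.3% of 10149 protein-coding genes with at least 1 TPM. Over the 20 bases from the start the mean share was 57.2% in core genes and 47.5% in the other set. The gap was as wide farther into the transcript, at 57.95% and 47.8% over bases 20 to 49 after the start. Over bases 50 to 31 before the start the shares were 54.1% and 49.8%.

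**Figure D1:**
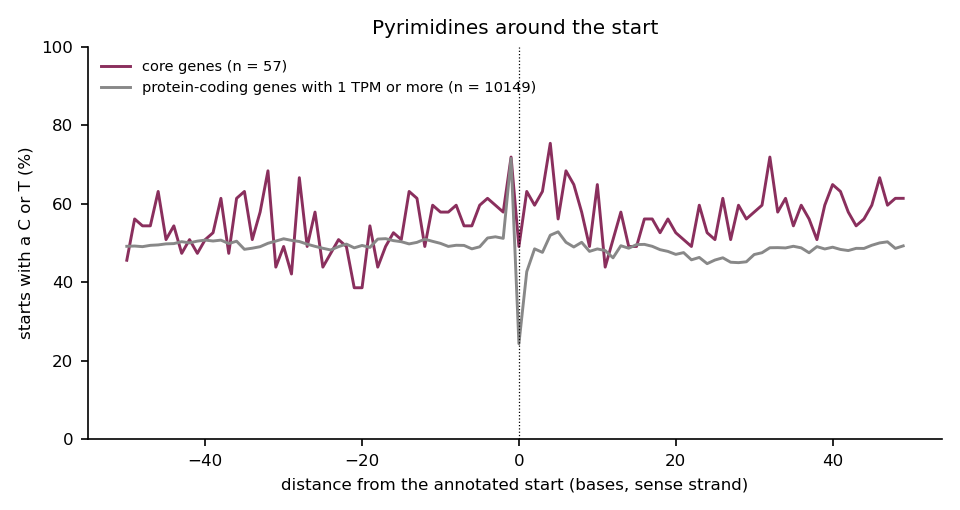
Share of annotated starts with a C or T (%) at each distance from the start in bases, on the sense strand, for 57 core genes and for 10149 protein-coding genes with at least 1 TPM (lines). At the start the core line stands at 49.1% and the other at 24.3%.

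Other promoter letters were searched on both strands of the whole 300 bases, from 250 before to 50 after the start, and the reverse complements of CCGGAAG and AAGATGG are rich in pyrimidines and can overlap a run at the start. CCGGAAG, letters bound by ETS factors, was in 26 of 66 genes of the family, or 39.4%, against 9.93% of all promoters and 19.3% of those of protein-coding genes with at least 1 TPM. AAGATGG, letters of the YY1 motif, was in 10 of 66, or 15.2%, against 7.28% and 8.16%. GGGCGG, the GC box, was in 41 of 66, or 62.1%, against 38.2% and 67.2%. TATAAA was in 7 of 66, or 10.6%, against 15.7% and 9.17%. A match describes letters only and shows no binding.

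The family was abundant as a whole. Its TPM summed to 78632 in replicate 1 and 81812 in replicate 2, or 8.06% and 8.37% of the TPM of all genes. In fragments, which favour long transcripts, the shares were 2.74% (exact 95% interval 2.74 to 2.75%) and 2.96% (2.96 to 2.97%), intervals that cover counting error only. On average over the libraries, 72 of 86 genes reached 100 TPM, against 3.84% of all genes, 7.37% of protein-coding genes and 12.2% of protein-coding genes with at least 1 TPM. The median gene of the family had 455 TPM in replicate 1 and 440 TPM in replicate 2, while the median protein-coding gene with at least 1 TPM had 15.7 and 15.1 TPM. Of the 100 highest genes of the tables, 26 belong to the family.

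The P stalk held the highest gene. This stalk is the flexible arm of the large subunit that recruits the elongation factors, and Rplp0 anchors pairs of Rplp1 and Rplp2 in it. Rplp1 (chromosome 9, 61913284 to 61914542) had 7568 TPM in replicate 1 and 8658 TPM in replicate 2 and ranked 6 among all genes. Rplp0 had 2813 and 2910 TPM. Rplp2 had 567 and 593 TPM. The levels of the 3 stalk genes thus did not overlap, and the gap between Rplp1 and Rplp2 was far wider than the spread of either.

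The large subunit also held Rpl13a, Rpl13 and Rpl36 among the 10 highest genes. Rpl13a, which is also known for a role outside the ribosome in repressing inflammatory mRNAs, had 5268 and 4979 TPM. Rpl13 had 2969 and 2604 TPM, and Rpl36 had 2603 and 2729 TPM, so these neighbours in the order overlapped. The Rpl13a value rests on short transcripts: 79.3% of its TPM lay on a transcript of 338 bases that M21 no longer lists, with an effective length of 123 bases, while its full coding transcript Rpl13a-201 had 178 and 131 TPM. By estimated fragments the 3 highest genes were instead Rpsa, with 126665 and 166665 fragments, Rplp0, with 112272 and 161002, and Rplp1, with 74178 and 117175.

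Among small subunit genes, Rps12 led at 3944 TPM in replicate 1 and 4680 TPM in replicate 2. Rps21 had 2543 and 3370 TPM, Rps2 had 2819 and 2753 TPM and Rps9 had 2446 and 2234 TPM. Rps21 spanned the values of Rps2, and Rps9 lay below both. Rps6, the subunit phosphorylated by S6 kinases downstream of mTOR, had 739 and 653 TPM. Of this, 85.5% and 82.9% lay on Rps6-202, which M21 classes as a processed transcript and not as coding. The coding transcript Rps6-201 had 96.0 and 101.9 TPM. Rps19, the gene most often mutated in human Diamond-Blackfan anaemia, had 462 and 559 TPM. The 10 highest genes together held 44.6% of the family's TPM in replicate 1 and 45.5% in replicate 2.

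**Figure D2:**
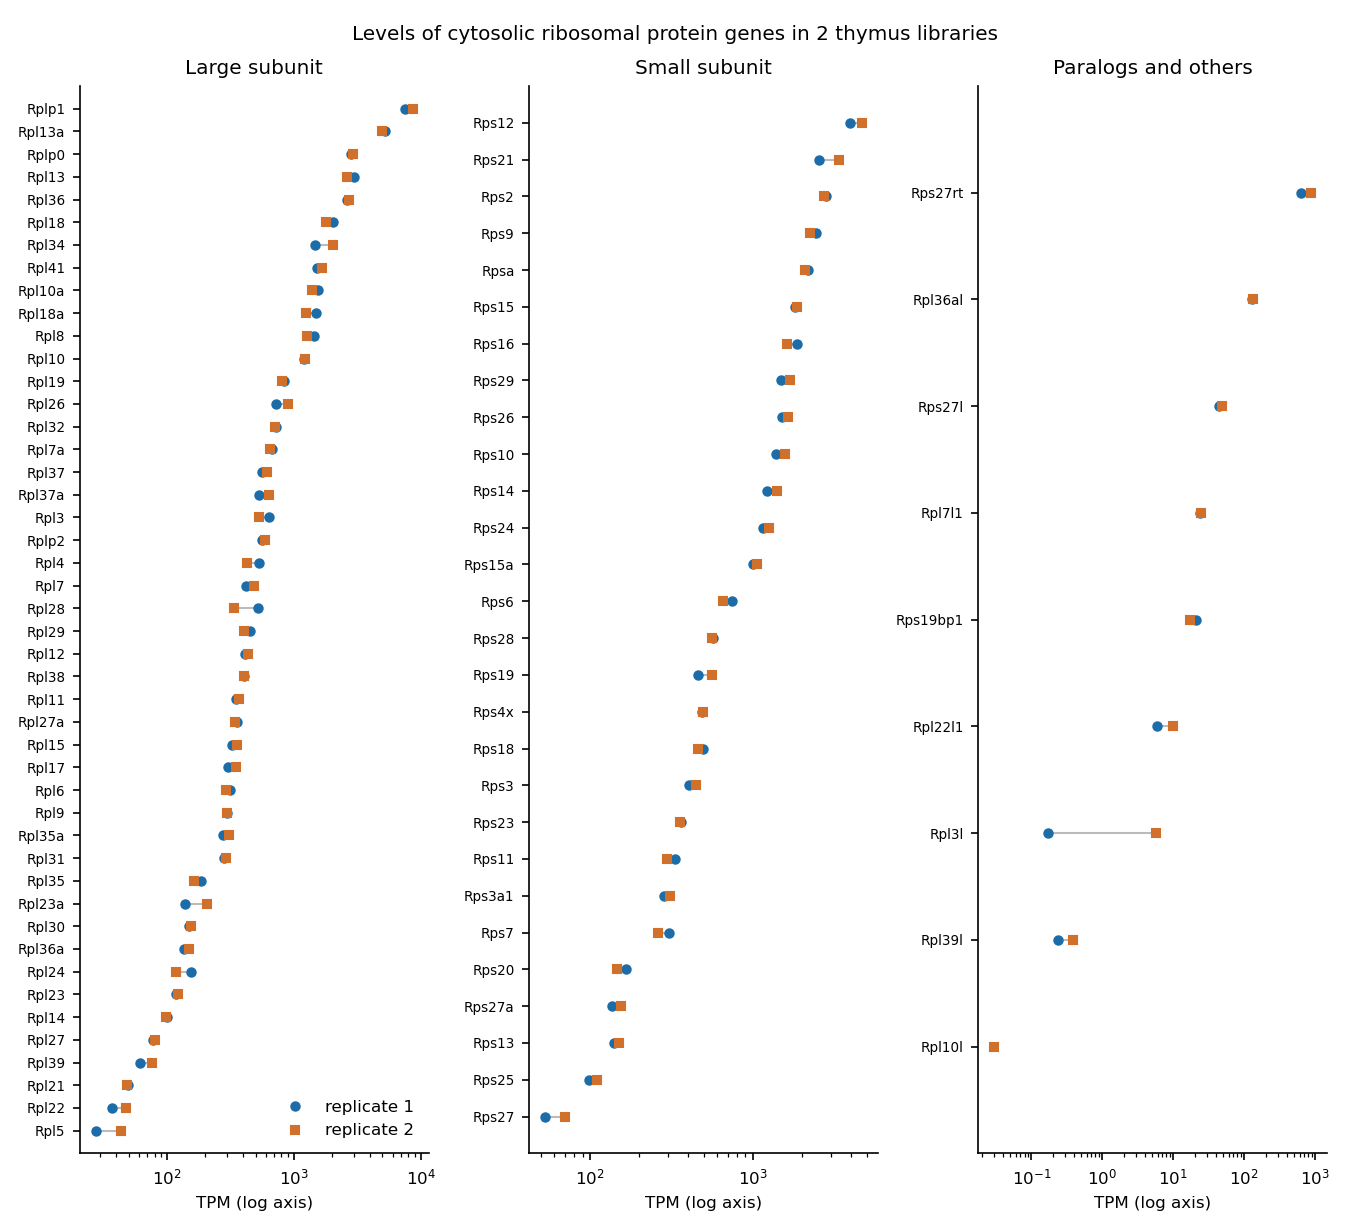
TPM of the genes reported here (log axis) in replicate 1 (circles) and replicate 2 (squares), by large subunit, small subunit and the other 9 genes, ordered by mean; grey bars join the libraries. Core genes run from Rpl5 at 27.6 and 43.6 TPM to Rplp1 at 7568 and 8658 TPM; Rpl10l at 0 TPM in replicate 1 has no point there.

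Large and small subunit genes differed in their medians, a difference given as a description and not tested. The median core large subunit gene had 433 TPM in replicate 1 and 419 TPM in replicate 2. The median core small subunit gene had 739 and 653 TPM. As a difference of median log2 levels, large minus small was -0.70, with -0.77 and -0.64 in the libraries taken singly. In CPM, which scales counts by the library total and not by length, it was -0.32. Both subunits spanned a wide range: from the 10th to the 90th percentile, large subunit genes ran from 89.1 to 2294 TPM and small subunit genes from 146 to 2340 TPM. Mean TPM was nearly unrelated to coding length over the 77 core genes (Spearman 0.083, a description over genes that share libraries).

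The lowest core genes were Rpl5, Rpl22, Rpl21, Rps27 and Rpl39. Rpl5, which with Rpl11 and the 5S RNA forms the particle that binds Mdm2 and so stabilises p53, had 27.6 TPM in replicate 1 and 43.6 TPM in replicate 2. Its partner Rpl11 had 353 and 370 TPM. Rpl21, a large subunit protein, had 49.5 and 48.8 TPM. Rps27, a zinc-binding small subunit protein, had 52.8 and 69.8 TPM. Rpl39, a small protein of the exit tunnel wall, had 61.5 and 76.6 TPM. Rpl5 and Rpl22 overlapped across libraries, as did Rps27 and Rpl39.

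All of these 5 genes but Rpl22 have near-identical copies elsewhere in the genome that were assigned reads. A copy was defined as another gene with a transcript that matches at least 95% of bases over at least 80% of the coding sequence, a definition chosen after the values were seen. Of 77 core genes, 69 had at least 1 such copy and 8 had none. The copies numbered 405 genes outside the family, 393 of them in a pseudogene class. Of the 405, 98 had at least 1 TPM and 170 had 0 fragments in both libraries. Together they held 10748 TPM in replicate 1 and 10436 TPM in replicate 2. Of these sums, 1148 and 1464 TPM lay on Gm10443, a copy of Rps28, from only 166 and 260 fragments over 4.14 and 3.66 effective bases. Expected counts divide reads that match a gene and its copy alike, by a procedure not known here, so these levels are uncertain on both sides.

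The Rpl5 coding sequence is matched at 100% by Gm15500, a transcribed processed pseudogene on chromosome 7. Gm15500 had 397 TPM in replicate 1 and 411 TPM in replicate 2, far above Rpl5 itself. Rpl5 and its copies summed to 424 and 455 TPM, of which the copies held 93.5% and 90.4%. The retained intron transcript Rpl5-202 took 64.7% and 74.5% of what was assigned to Rpl5, and the coding transcript Rpl5-201 took 15.2% and 9.74%.

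Rps27 and Rps27rt form the closest pair within the family. Rps27rt (chromosome 9, 114982366 to 114982739) is a gene of 1 exon whose coding sequence matches that of Rps27, spread over 4 exons, at 100% of 255 bases. The printed starts share a stretch of 29 bases that begins 1 base after the annotated start of Rps27 and at the annotated start of Rps27rt, with a different base just before it. Rps27rt had 634 TPM in replicate 1 and 877 TPM in replicate 2, against 52.8 and 69.8 TPM for Rps27. The fragments assigned numbered 3438 and 6543 for Rps27rt and 73.7 and 131 for Rps27. The annotated Rps27 transcript has 255 bases, its coding sequence alone, which leaves an effective length of 39.8 bases in replicate 1, against 155 bases for Rps27rt. The sum of both genes was 687 and 947 TPM.

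In 9 core genes the copies held over 50% of the combined TPM in both libraries: Rps27, Rpl5, Rpl27, Rpl14, Rps13, Rpl12, Rps28, Rpl21 and Rpl23a. Rpl27 had 77.2 and 81.2 TPM, and its copy Rpl27-ps3 had 696 and 734 TPM. Rpl14 had 100.2 and 97.96 TPM, and Rpl14-ps1 had 814 and 624 TPM. Rps13 had 140.3 and 149.6 TPM, and Rps13-ps1 had 742 and 668 TPM. Rpl12 had 413 and 434 TPM, and Gm10275 had 1072 and 1004 TPM. In CPM, 7 of the 9 had over 50% in both libraries. Rps28 did not: all its copies together held 3.92% and 4.73% of the combined fragments. Its copy Gm10443 was given 1148 and 1464 TPM from only 166 and 260 fragments, over an effective length of 4.14 and 3.66 bases. Rpl21 stood at 45.5% and 51.2%, spread over 40 copies led by Gm10163 and BC004004. BC004004 is classed as protein-coding, with effective lengths of 1482 and 1369 bases, while the matched coding sequence of Rpl21 has 483. All of its 29.5 and 39.2 TPM was counted as copy, and the place of Rpl21 among the 9 rests on it.

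Adding copies narrowed the range of the core genes. From the 10th to the 90th percentile it was 114 to 2471 TPM, a ratio of 21.7, for the genes alone, and 154 to 2543 TPM, a ratio of 16.5, with copies. The number of core genes with at least 100 TPM was 70 alone and 76 with copies. Most of the highest genes changed little. Rplp1, Rpl13a and Rpl36 gained under 1% from copies, while the 3 copies of Rplp0 summed to 938 and 499 TPM, or 14.6% of the combined TPM in replicate 2 and more in replicate 1. The 257 genes with a -ps name, 136 of which are among the 405 copies, had 5.57% and 4.85% of the family's summed TPM.

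**Figure D3:**
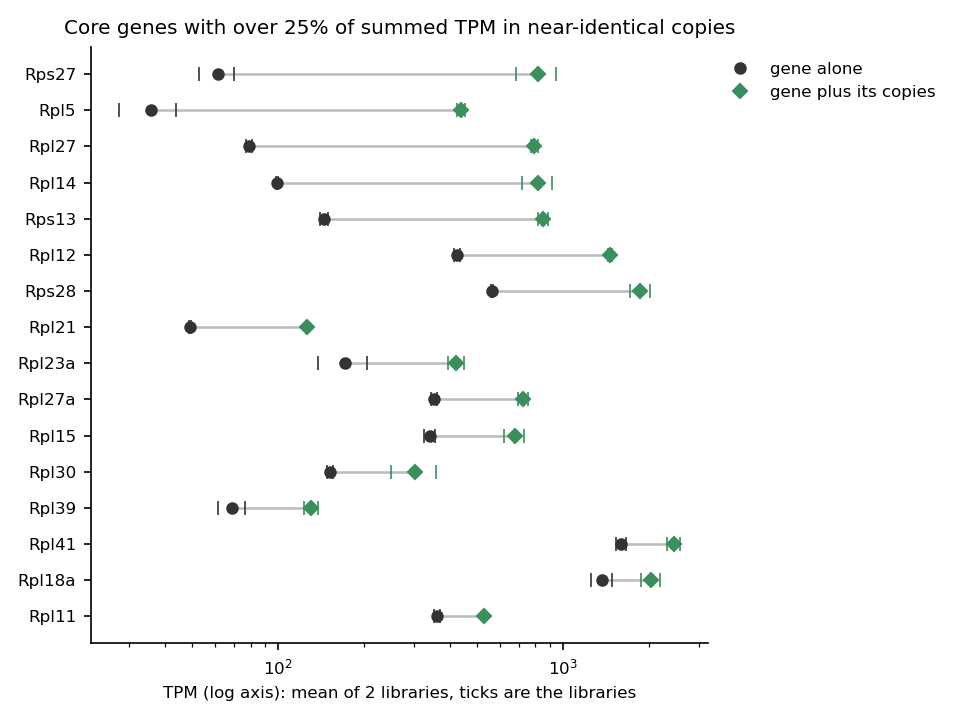
TPM (log axis) of the core genes reported here whose near-identical copies held over 25% of the combined TPM in both libraries, for the gene alone (circles) and with its copies (diamonds), as means of 2 libraries with ticks for each library. Rpl5 stands at 27.6 and 43.6 TPM alone and at 424 and 455 TPM with copies.

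Rpl22 is the exception among the lowest genes. It had 37.3 TPM in replicate 1 and 47.98 TPM in replicate 2, with 1430 and 2106 fragments. The spread that the authors' model gave to these counts was 0, and its 1 copy held 0% of the combined TPM. With copies added to every core gene, Rpl22 was the lowest in TPM, at a mean of 42.6 TPM. Its effective length was 1095 and 903 bases. In fragments it was not the lowest, since Rpl36a had 1351 and 2041, with almost none in copies. The TPM of Rpl22 was split over several transcripts, with Rpl22-201 at 37.8% and 53.9%. Rpl22-208 and Rpl22-204, which are 2048 and 2051 bases long, took 11.2 and 9.20 TPM and 8.39 and 10.2 TPM.

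Most of the other paralogs stood below their core partners in TPM. Rpl22l1, which can take the place of Rpl22 in the ribosome, had 5.89 TPM in replicate 1 and 9.76 TPM in replicate 2, and Rpl22 was 6.33 and 4.92 times as high. Rps27l, a p53 target, had 43.7 and 48.2 TPM. Its core partner Rps27 was 1.21 and 1.45 times as high in TPM, while Rps27rt, the copy of Rps27 described above, was 14.5 and 18.2 times as high. In fragments Rps27l was above Rps27, with 437 and 664 against 73.7 and 131. The effective lengths in replicate 1 were 285 bases for Rps27l and 39.8 for Rps27. Rpl7l1, a nucleolar relative of Rpl7 that acts in large subunit assembly, had 23.98 and 24.7 TPM, against 418 and 489 TPM for Rpl7. Rpl36al, a retrogene on chromosome 12, stood close to its X-linked partner, with 128.7 and 131.3 TPM against 136.7 and 150.3 TPM for Rpl36a. Their coding sequences match at 87.8% of bases. Rps19bp1, which is no ribosomal protein but binds Rps19, had 20.8 and 16.9 TPM.

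Paralogs known from testis were nearly silent. Rpl10l, a retrogene that replaces Rpl10 in male germ cells, had 0 fragments in replicate 1 and 1 in replicate 2. At these depths 3 fragments correspond to 0.106 and 0.0765 TPM. A level below these would be expected to give fewer than 3 fragments and could be missed. Rpl10 had 1205 and 1222 TPM. Rpl39l, also known from male germ cells, had 5 and 11 fragments (exact Poisson intervals 1.62 to 11.7 and 5.49 to 19.7), or 0.24 and 0.38 TPM, against 61.5 and 76.6 TPM for Rpl39.
The coding sequences of Rpl39 (Rpl39-201, gene at chrX:37082520-37085402, minus strand) and Rpl39l (Rpl39l-201, gene at chr16:10170226-10174911, plus strand), joined over their exons from GENCODE M21 transcripts, are shown because they are short and their levels lay far apart, with the 23 bases that differ in capitals.
Rpl39: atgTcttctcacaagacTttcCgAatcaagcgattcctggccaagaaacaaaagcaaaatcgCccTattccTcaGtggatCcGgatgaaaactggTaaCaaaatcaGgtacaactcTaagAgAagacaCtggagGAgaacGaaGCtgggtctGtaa
Rpl39l: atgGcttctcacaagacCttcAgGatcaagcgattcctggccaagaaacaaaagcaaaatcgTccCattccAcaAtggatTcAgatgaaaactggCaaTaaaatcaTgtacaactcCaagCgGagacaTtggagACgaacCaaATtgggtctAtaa
Both have 156 bases and match at 85.3%. Of the differing bases, 5 are at the first codon position, 2 at the middle one and 16 at the last.

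Rpl3l stood apart from every other gene of the family. This paralog of Rpl3, known from skeletal and heart muscle, had 7 fragments in replicate 1 (exact Poisson interval 2.81 to 14.4) and 307 in replicate 2 (274 to 343), or 0.17 and 5.68 TPM. Replicate 2 was 33.4 times as high in TPM. Rpl3 itself had 640 and 528 TPM. All 7 genes of the muscle marker list were higher in replicate 2 as well, and their summed level was 85.6 TPM in replicate 1 and 844 TPM in replicate 2. Ckm had 10.7 and 163 TPM, Actc1 had 57.7 and 574 TPM, Myh6 had 8.46 and 86.9 TPM and Acta1 had 0.77 and 10.1 TPM, while Mylpf had 7.31 and 8.13 TPM. The part of these in the Rpl3l result was not tested, and more cells of a type cannot be told apart from more RNA per cell in bulk tissue. Of the male germ cell list, 4 of 6 genes were higher in replicate 2, and Acrv1 (0.19 and 0.14 TPM) and Sycp3 (0.04 and 0 TPM) were not. The sum of the 6 genes was 1.12 and 11.7 TPM, mostly Prm1 at 0.45 and 4.81 TPM and Prm2 at 0.42 and 5.54 TPM, while Rpl10l and Rpl39l had at most 11 fragments in either library. Red cell markers summed to 4495 and 5463 TPM and B cell markers to 83.0 and 68.0 TPM.

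**Figure D4:**
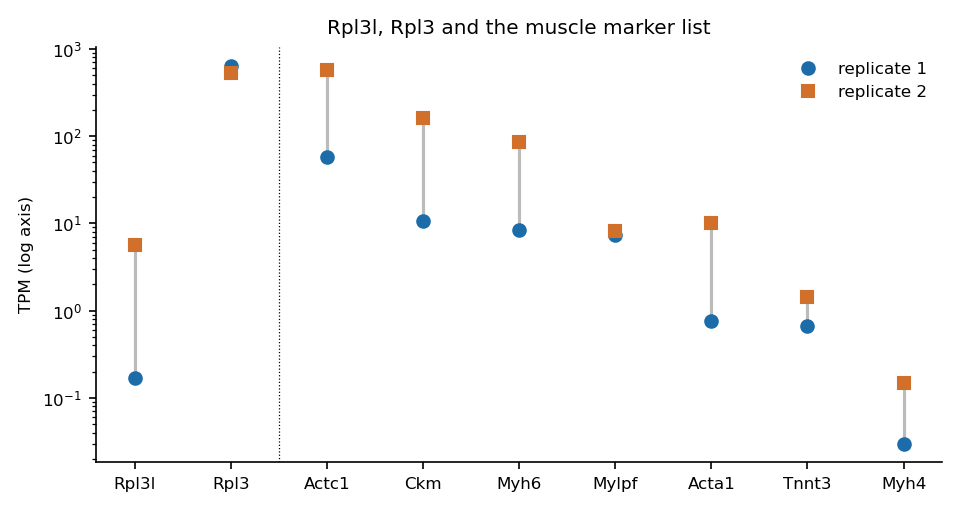
TPM (log axis) of Rpl3l, Rpl3 and the 7 muscle markers in replicate 1 (circles) and replicate 2 (squares). Rpl3l stands at 0.17 and 5.68 TPM and Ckm at 10.7 and 163 TPM, while Rpl3 stands at 640 and 528 TPM.

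The rest of the family was similar in both libraries. Ratios are replicate 1 over replicate 2 on the log2(TPM + 0.1) scale, for genes that averaged 1 TPM or more, and are given relative to the median over 14360 such genes, which was 0.044. The pseudocount makes the ratio of low genes smaller. Of 84 genes of the family, 1 was at least 1.5-fold higher in replicate 1, against 4.78% of all genes, and 4 were at least 1.5-fold higher in replicate 2, against 6.99%. Both are near or below the background. Among genes with at least 100 TPM, 1 of 72 passed in each direction, against 3.91% and 1.98% of all such genes. The SD of the ratio over these 72 genes was 0.20, against 0.40 over all 1664 genes with at least 100 TPM. TPM of the 86 genes had a Spearman correlation of 0.99 between libraries, as a description.

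The 5 genes with at least 10 TPM farthest from the median ratio were Rpl5, Rpl23a, Rpl28, Rps27rt and Rpl34. Rpl28, a large subunit protein, was the one that was higher in replicate 1, with 522 TPM against 336 TPM and a relative log2 ratio of 0.59. Rpl34 had 1474 TPM in replicate 1 and 2026 TPM in replicate 2, a relative ratio of -0.50. Its effective length was 328 bases in replicate 1 and 267 bases in replicate 2, with 16953 and 26310 fragments. A coding transcript of 711 bases held 26.1% of the Rpl34 TPM in replicate 1 and 0.553% in replicate 2. The part of this transcript shift in the Rpl34 ratio was not tested. Rpl5 had a relative ratio of -0.70 and Rpl23a, at 137.8 and 205.8 TPM, one of -0.62. With copies added, these became -0.14 for Rpl5 and -0.23 for Rpl23a, both nearer to the median of all genes. Rpl28 with its copies stayed at 0.58.

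Core genes leaned slightly towards replicate 2. Their median relative ratio was -0.11, and 53 of 77 were below 0. The lean was strongest in the shortest of 3 classes of length: of 15 core genes with an effective length under 300 bases, 14 were relatively higher in replicate 2, with a median of -0.17. For 36 genes of 300 to 600 bases the count was 24 and the median -0.11, and for 26 longer genes it was 15 and -0.040. Over the 77 core genes the Spearman correlation of ratio and effective length was 0.33, and over 1511 other protein-coding genes with at least 100 TPM it was 0.32. Of those other genes, 33 of 67 under 300 bases were relatively higher in replicate 2, with a median of 0.018. Between 300 and 600 bases it was 107 of 153, with a median of -0.13, much like the core genes of that class. Among longer ones it was 493 of 1291, with a median of 0.059. The part of length in the lean of the family was not tested.

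**Figure D5:**
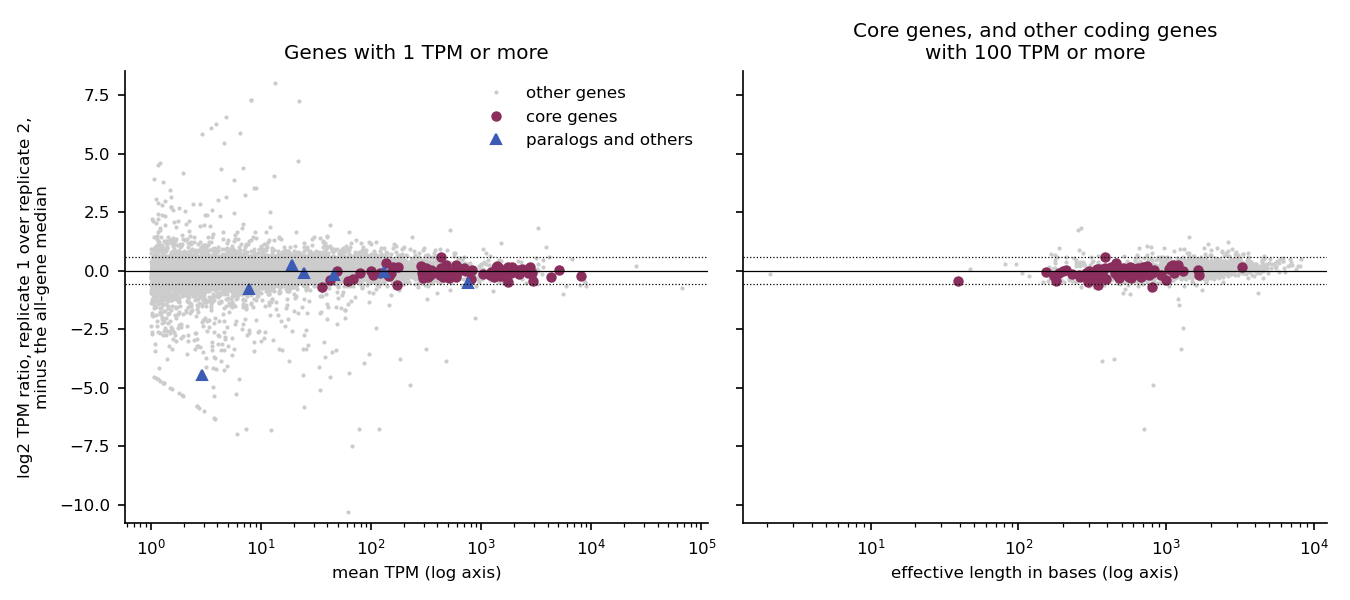
Log2 TPM ratio, replicate 1 over replicate 2, minus the median of all genes, against mean TPM (left) and effective length (right), both on log axes; core genes are circles, the other genes of the family triangles, other genes grey dots, and dotted lines mark 1.5-fold. Core genes lie between -0.70 and 0.59, and the lowest triangle is Rpl3l at -4.46.

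In the tables, 24 of the 86 genes had 1 transcript. Of 61 genes with at least 2 annotated transcripts and at least 1 TPM, 28 had over 90% of their TPM on 1 transcript, against 22.2% of all such genes, and 4 had under 50%, against 24.1%. The highest transcript was the same in both libraries in 59 of 61 genes, against 88.3%. The lowest shares on the highest transcript were in Rpl15 (34.0% and 31.6%), Rpl22l1 (37.2% and 42.9%), Rpl22 (37.8% and 53.9%), Rps14 (48.5% and 46.03%) and Rps9 (54.4% and 48.2%). Transcripts classed as retained intron held 6.76% of the family's TPM in replicate 1 and 5.69% in replicate 2, against 10.6% in both libraries over all protein-coding genes with at least 1 TPM. Those classed for nonsense-mediated decay held 0.409% and 0.437%, against 2.33% and 2.22%.

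The 5 genes with the most TPM in these classes were Rps2, Rps9, Rps16, Rpl10a and Rpl12. Rps2 had 1427 TPM in replicate 1 and 1607 TPM in replicate 2 on retained intron transcripts. Rps9 had 1334 and 1083 TPM, Rps16 had 1039 and 767 TPM and Rpl10a had 391 and 378 TPM on such transcripts. Rpl12 was the one gene led by the decay class, with 239.7 and 280.0 TPM. In Rps9, Rps2 and, by the mean, Rps16 the highest single transcript was itself a retained intron form. How many bases tell these transcripts from the coding forms was not measured.

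The genes also serve as hosts. Small nucleolar RNAs, which guide the modification of ribosomal RNA, lay inside 30 of 77 core genes on the same strand, or 39.0%, against 1.71% of protein-coding genes with at least 1 TPM. They numbered 58, with 5 inside Rpl4, 4 inside Rpl13a and 3 inside Rpl5. The core genes were spread over 19 chromosomes, with 14 on chromosome 7.

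Ribosomal proteins outside the symbol rule were at like levels. Rack1, the scaffold of the small subunit head, had 3270 TPM in replicate 1 and 3146 TPM in replicate 2. Fau, a fusion of a ubiquitin-like protein with Rps30, had 508 and 606 TPM. Rps27a, the ubiquitin fusion inside the rule, had 136.9 and 154.7 TPM.

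Lists of related genes were lower in the median. The 13 genes listed for a 5′ oligopyrimidine tract, mostly translation factors but also Tpt1, Naca and Nap1l1, had a median of 233 TPM. Of these, 10 had at least 100 TPM. Eef1a1, which delivers aminoacyl-tRNA, had 3874 and 3352 TPM, Tpt1 had 2184 and 1802 TPM and Eef2, the translocase, had 1791 and 1478 TPM. The 24 ribosome assembly genes had a median of 29.6 TPM, led by Nop56 at 187 and 168 TPM, Npm1 at 156 and 131 TPM and Bop1 at 122 and 124 TPM. The 6 genes listed for mTOR signalling and Larp1 had a median of 48.7 TPM. They were led by the S6 kinase gene Rps6kb2 at 72.5 and 70.5 TPM, Eif4ebp1 at 45.98 and 52.6 TPM and Rptor at 51.5 and 46.3 TPM. Past 1.5-fold between libraries, 1 of the 13 tract genes was higher in replicate 1 (Eif3f, 259 and 127 TPM) and 0 were higher in replicate 2. In the assembly list and the mTOR and Larp1 list, 0 genes passed in either direction. Relative to all genes, the median log2 ratio was 0.16 for the 13 tract genes and 0.20 for the assembly genes. Both lay on the other side of 0 from the core ribosomal protein genes at -0.11. The ratio also went with effective length, as described above, and the lists were not matched to the core genes for length. The part of length in this contrast was not tested.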

How the data were processed

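Per the file headers, the authors' deposited gene and transcript tables hold expected counts, TPM scaled over all features including spike-ins, the percent of a gene on each transcript, interval bounds of TPM and the spread of counts. Per the text files deposited with them, quantification used mm10 and GENCODE M4. The quantifier and aligner were not given in the sources used here. Genes were matched to GENCODE M21 on IDs without version (42462 of 43346 matched). Deposited contig and junction lists (mm9) were not used.

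The family, the lists and the rule for named genes (the 10 highest and 5 lowest core genes, non-core members, the stalk, genes of known role, and extremes of ratio and transcript use) were chosen with earlier results of these data known. Levels are TPM; CPM came from the expected counts, rounded to whole numbers for edgeR and DESeq2 scaling. Copies were found with BLAST 2.17.0 (word size 11) using each gene's highest complete coding transcript. Ratios used a pseudocount of 0.1 TPM. RefSeq promoters span 250 bases before to 50 after the start. The ratio call was tried on simulated counts with Poisson noise alone, which is less than the difference seen between these libraries. The search for pyrimidine runs was tried on runs planted in sequences of A and G only. No false run could arise there, so the rate of false runs was not measured. A few genes are counted in the totals but are not reported here by name. Alternatives are in the closing section. Tools were Python 3.11.15, pandas 2.3.3, scipy 1.17.1, R 4.3.3, edgeR 4.0.16 and DESeq2 1.42.0.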

Additional observations from a re-analysis of the deposited data

How the results depend on the processing

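No paired analysis was possible because the series holds 1 group, so its replicate numbers pair no samples across groups. Leaving out either library gave a median level of 440 to 455 TPM, a share of 8.06 to 8.37%, 72 genes with at least 100 TPM, a large minus small subunit difference of -0.77 to -0.64, a -ps to family ratio of 4.85 to 5.57%, 29 to 31 genes with 1 transcript over 90%, a core median with copies of 695 to 716 TPM, and 10 to 12 genes with most TPM in copies. Values moved mainly with the unit, since TPM scales by length and CPM does not. In CPM the median level was 187, the share 2.85%, the subunit difference -0.32, the -ps ratio 4.08% (5.21% in TPM) and the core median with copies 260 (259.8 CPM, against 679 TPM). The median level was 488 TPM over core genes and 465 TPM over genes with at least 1 TPM, and the share of coding TPM was 10.1%. The median ratio before centring, -0.064, was -0.064 with a pseudocount of 1, without one, and over core genes, -0.076 with edgeR's TMM, -0.064 with DESeq2's size factors, -0.066 over all genes above 0 and -0.062 at 100 TPM or more. Centred on all genes of each setting, the family's median moved more. It was -0.11 in the main setting, -0.079 with TMM and -0.080 with DESeq2's size factors. Over all genes above 0 it was -0.071, and at 100 TPM or more -0.14. The count of 5 genes past 1.5-fold was 1 at 100 TPM or more when centred on the median of such genes (2 when centred on all genes), 3 over core genes, 13 when a difference of 25% sufficed and 1 at 2-fold. At least 6 pyrimidines from a C at the start itself were in 12 genes, against 35 with a run within 10 bases. Copy thresholds of 90% and 98% identity kept the count of 9. TPM rests on few positions in the 5 core genes with effective lengths under 200 bases, and also where a short transcript leads, as in Rps15a, with 89.7% on Rps15a-203 of 34.9 effective bases.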

Other observations

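Processed copies outside the family varied more between libraries than their parents in a few cases, chosen after their values were seen. Gm6472, a transcribed processed pseudogene on chromosome X that matches Rps7 at 99.5% of bases, had 87.8 fragments in replicate 1 and 2511 in replicate 2, or 5.75 and 119 TPM. Rps7 itself had 305 and 260 TPM. Gm12191, a copy of Rpl30 on chromosome 11, had 99.5 and 201 TPM, while Rpl30 had 149 and 155 TPM. Gm8730, a copy of Rplp0 on chromosome 8, went the other way, with 637 TPM in replicate 1 and 336 TPM in replicate 2, while Rplp0 had 2813 and 2910 TPM.

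Gm10076, which M21 classes as a long intergenic non-coding RNA on chromosome 14, holds the whole coding sequence of Rpl41, the smallest ribosomal protein, at 100% of 78 bases. It had 789 TPM in replicate 1 and 915 TPM in replicate 2, against 1534 and 1670 TPM for Rpl41. Among 257 genes with a -ps name, 54 had at least 1 TPM and 146 had 0 fragments in both libraries. The 8 highest held 82.9% and 84.4% of their summed TPM.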
